A study of Mus musculus with 6 samples.

Results

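The imprinted cluster of mouse chromosome 7 that runs from Atp10a past Ube3a and Snrpn to Peg12 was examined in the list of H3K9me3 peaks that the study called in wild-type (WT) Bergmann glia (BG) and not in Setdb1 mutant BG. The members were the peaks that the authors' annotation assigned to Snrpn, Peg12, Ube3a, Ndn, Magel2, Mkrn3 or Atp10a, which means that the transcription start site (TSS) nearest to the peak's centre belonged to that gene. By this rule there were 36 member peaks among the 34673 peaks of the list. Snrpn had 15 of them, Peg12 had 9, Ube3a had 5, Atp10a had 5, Ndn had 1, Mkrn3 had 1 and Magel2 had 0.

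The peaks came from ChIP-seq of BG, the radial glia of the cerebellar cortex, from C57BL/6 mice at postnatal day 10. The series held 2 H3K9me3 libraries from WT BG, 2 from the mutant (labelled MT) and 2 controls, which are titled input but carry IgG as their antibody, with no genotype given. In the study's methods the mutant mice carried mGFAP-Cre and Setdb1 flox/flox, and BG were sorted by the GFP of a Nestin reporter. Because mGFAP-Cre also acts in the other neural cells of the cerebellum except Purkinje cells, the loss of Setdb1 in these mice was not limited to BG. The sources used here do not say whether libraries of the same genotype came from different animals. The list merged the libraries and held no value for any single one of them, so depth is unknown, there is no replicate error and no test between genotypes could be made. Nor did it hold expression values, so the identity of the sorted cells could not be checked against markers. All mice had the same inbred strain label, so the maternal and paternal chromosomes could not be told apart.

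H3K9me3, trimethylated lysine 9 of histone H3, marks silent chromatin. Setdb1 is one of the enzymes that write it, and is best known for keeping endogenous retroviruses silent. In an imprinted cluster, the allele that is transcribed depends on the parent it came from. A germline-methylated control region at the Snrpn promoter sets the state of this cluster: on the paternal chromosome Snrpn, Ndn, Magel2, Mkrn3 and Peg12 are transcribed, and on the maternal chromosome the control region is DNA-methylated and these genes are silent. A long noncoding transcript, Snhg14, starts upstream of Snrpn, hosts arrays of small nucleolar RNA (snoRNA) genes and runs on into Ube3a from the opposite strand. It silences the paternal copy of Ube3a in neurons, whereas glia transcribe both copies. In humans, loss of the paternal genes leads to Prader-Willi syndrome and loss of the maternal UBE3A to Angelman syndrome.

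Sequences are given 5′ to 3′ from RefSeq GRCm38.p6, the build of the peak list (mm10), with CG dinucleotides, the sites of DNA methylation, in capitals. The first is the main Snrpn promoter, on the minus strand, which is shown because it was the point from which distances were measured. The next 3 are the central 300 bases, on the plus strand, of the member peak closest to that promoter, of the member peak with the highest score and of the member peak closest to any TSS. The last is the same window of the peak with the highest score between Ube3a and Snrpn, which no member gene claimed. The last 2 were chosen after the peak list had been seen. A repeat name in brackets is the authors' label at the peak's centre and need not cover the whole window.
Snrpn promoter, chr7:60005150-60005449: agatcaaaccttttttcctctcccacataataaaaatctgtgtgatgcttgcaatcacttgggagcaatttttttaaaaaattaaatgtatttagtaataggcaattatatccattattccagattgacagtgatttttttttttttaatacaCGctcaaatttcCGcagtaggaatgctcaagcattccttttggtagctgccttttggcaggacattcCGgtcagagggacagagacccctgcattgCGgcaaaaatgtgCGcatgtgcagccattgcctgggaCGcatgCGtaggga
Peak closest to the Snrpn promoter (ORR1B1), chr7:60035951-60036250: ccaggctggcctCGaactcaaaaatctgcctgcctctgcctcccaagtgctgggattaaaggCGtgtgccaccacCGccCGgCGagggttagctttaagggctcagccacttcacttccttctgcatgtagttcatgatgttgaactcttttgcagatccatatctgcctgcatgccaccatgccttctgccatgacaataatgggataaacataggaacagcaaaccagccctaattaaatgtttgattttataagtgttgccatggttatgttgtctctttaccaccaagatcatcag
Member peak of highest score (IAP-d-int), chr7:59086128-59086427: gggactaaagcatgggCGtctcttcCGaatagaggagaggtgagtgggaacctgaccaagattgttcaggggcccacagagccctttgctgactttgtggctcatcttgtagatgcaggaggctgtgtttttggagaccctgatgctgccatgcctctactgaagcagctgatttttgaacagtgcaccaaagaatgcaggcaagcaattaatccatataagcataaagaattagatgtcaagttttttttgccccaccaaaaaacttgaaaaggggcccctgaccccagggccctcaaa
Peak next to an upstream Snrpn start (L1_Mus3), chr7:60138438-60138737: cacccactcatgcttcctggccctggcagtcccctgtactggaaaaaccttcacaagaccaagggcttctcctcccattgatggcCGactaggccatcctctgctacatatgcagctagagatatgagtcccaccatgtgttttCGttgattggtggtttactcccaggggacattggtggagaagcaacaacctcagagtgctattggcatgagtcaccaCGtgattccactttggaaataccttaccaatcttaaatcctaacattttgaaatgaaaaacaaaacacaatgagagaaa
Highest peak between Ube3a and Snrpn, chr7:59896932-59897231: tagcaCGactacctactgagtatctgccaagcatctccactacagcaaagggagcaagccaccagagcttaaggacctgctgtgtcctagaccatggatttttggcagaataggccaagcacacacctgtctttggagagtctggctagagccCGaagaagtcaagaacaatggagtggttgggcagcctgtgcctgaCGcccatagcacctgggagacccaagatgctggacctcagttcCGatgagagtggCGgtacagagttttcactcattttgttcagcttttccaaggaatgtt

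The Snrpn promoter held 7 CG dinucleotides, which equals the median of the 32851 RefSeq promoters of that length. It also held 1 match to TGCCGC, the hexamer bound by ZFP57 when methylated, and 1 match to TTGGCA, the single-subunit sequence of NFI factors, both searched on either strand. Of all promoters, 11.6% held the hexamer and 14.1% held TTGGCA. The promoters of the other members in that table were richer in CG, from 10 at Magel2 to 29 at Ube3a, and none of them had either motif. The 5 windows held 2 to 7 CG dinucleotides each. A match describes letters only and is not evidence of binding.

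Named by the authors' annotation, 6 of the 7 member genes had at least 1 peak, beside 48.9% of the 21887 protein-coding genes of the RefSeq annotation. Only Snrpn, 1 of the 7, had a peak within 10 kb of a TSS, beside 21.1% of those genes. Of the 36 member peaks, 30 lay in intergenic DNA, 5 in introns and 1 in an exon. Intergenic peaks made up 83.3% of the members (95% Wilson interval 68.1 to 92.1%) and 59.4% of the whole list. Over all 62 peaks from Atp10a to Peg12, whatever their name, the order was reversed. Their intergenic share was 40.3%, with an upper Wilson limit of 52.7%, below that of the list. Introns held 36 of these 62 peaks (58.1%), beside 34.2% of all peaks. Of these intronic peaks, 28 lay in introns of Snhg14 between Ube3a and Snrpn, so the reversal rests largely on that 1 stretch. The intervals cover counting error only and say nothing about the spread between animals. Thus the peaks that bear these imprinted genes' names mostly lay outside the genes, and all but 1 lay more than 10 kb from a start. The share of all peaks within 10 kb of a TSS is not given here, so this closeness is not set beside the list. Measured from the main Snrpn start, the Atp10a peaks lay 1214 to 1841 kb and the Ube3a peaks 917 to 1014 kb to the side of lower positions. On the other side, the Snrpn peaks lay 30.9 to 1023 kb away, the Ndn peak 2305 kb, the Mkrn3 peak 2403 kb and the Peg12 peaks 2474 to 2826 kb.

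**Figure D1:**
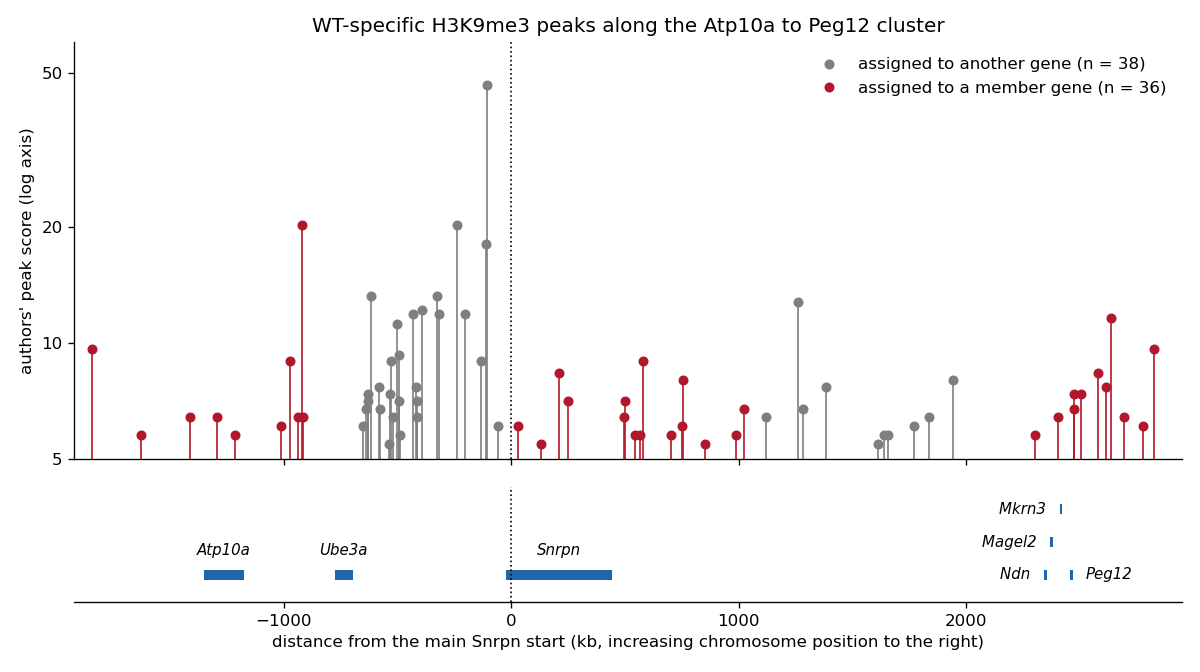
Peak score (authors' units, log axis) against distance from the main Snrpn start in kb, with 36 member peaks in red and the 38 peaks of the Atp10a to Peg12 interval that were assigned to other genes in grey. The lower strip shows the 7 genes, the shortest drawn at a minimum width. The dotted line marks the main Snrpn start, around which no peak lies for 90.3 kb, and the grey peaks to its left reach the highest score, 46.5.

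Snrpn encodes SmN, a protein of the spliceosome, and shares its main transcript with Snurf, a short upstream reading frame. The curated RefSeq transcripts of Snrpn start at 6 places, because the gene has alternative exons far upstream, and its annotated span is chr7:59982495-60450177 on the minus strand. The main start, that of the transcript of shortest span, is at position 60005199. No peak lay at it. The closest was centred 30.9 kb upstream, at chr7:60035850-60036350, in intron 1 of 12 of a longer Snrpn transcript, on an ORR1B1 long terminal repeat (ERVL-MaLR family), with a score of 6.1. On the other side the closest was 59.4 kb away, at chr7:59945597-59946097, on an L1Md_F3 element, also with a score of 6.1, and the authors assigned it to Snord64. The peak-free stretch around the control region was therefore 90.3 kb between centres. Stretches at least this long made up 25.6% of the 34557 gaps between neighbouring peaks of the list, whose median was 38.2 kb. A fixed position falls more often in a long gap than in a short one. These values therefore cannot say whether the gap at this promoter was unusually long.

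The upstream Snrpn starts differed in their distance to a peak. The start at position 60140225, which is 135 kb upstream of the main one, had a peak 1.64 kb away, at chr7:60138337-60138837, on an L1_Mus3 element with a score of 5.46. It was the only member peak within 10 kb of a TSS, a count with no share over all peaks beside it. The start at position 60047978 was 11.9 kb from the ORR1B1 peak above. The remaining upstream starts were 32.4 to 51.3 kb from a peak. The peak next to the upstream start was also among the weakest: 99.2% of all peaks had a score at least as high.

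The span of Snrpn from its main start to its farthest upstream start held 4 peaks in 445 kb, or 8.99 per Mb. Besides the ORR1B1 and L1_Mus3 peaks, these were an L1Md_A peak at chr7:60213915-60214547 with a score of 8.34, 209 kb from the main start, and an RLTR41 peak (ERV1 family) at chr7:60255457-60255957 with a score of 7.06, 251 kb from it. The L1_Mus3, L1Md_A and RLTR41 peaks lay in intron 4 of 171 of Snhg14, the host transcript that begins at the same farthest start. The 22.7 kb between the 3′ end of Snrpn and its main promoter held 0 peaks.

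The other 11 Snrpn peaks lay beyond the farthest start, in the gene-poor DNA towards Ndn. A pair stood close together 496 and 499.9 kb from the main start, an RLTR41 peak (chr7:60501181-60501681, score 6.42) and an LTRIS_Mus peak (chr7:60504858-60505358, score 7.06). Then came a peak outside repeats, the single one of Snrpn's 15 (chr7:60550861-60551361, score 5.78), followed by an L1Md_F2 peak (chr7:60572945-60573445, score 5.78). The highest score at Snrpn was 8.99, at chr7:60585251-60585923, on IAP1-MM_I-int, the internal part of an intracisternal A particle (IAP), a class of ERVK retrovirus. IAP elements are a classical target of Setdb1.

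Farther out, 705 to 1023 kb from the main start, the Snrpn peaks were again on repeats. They were a B3 peak (chr7:60710184-60710684, score 5.78), an RLTR13A peak (chr7:60755913-60756413, score 6.1) and an RMER13B peak (chr7:60758755-60759255, score 8.02), the last pair 2.84 kb apart. An L1Md_F2 peak (chr7:60858837-60859337, score 5.46), an Lx2 peak (chr7:60993394-60993894, score 5.78) and an RMER1A peak (chr7:61027713-61028213, score 6.74) completed the set. For 6 of these peaks the assignment to Snrpn depended on the annotation: with all curated RefSeq starts, 5 were nearest to Gm29729 and 1 to A230006K03Rik. In all, 14 of the 15 Snrpn peaks lay on a repeat, and their median score was 6.1.

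Ube3a, at chr7:59228750-59310837 on the plus strand, encodes an E3 ubiquitin ligase. No peak lay in its 82.1 kb. Its 5 peaks were all upstream, 141 to 237 kb from its TSS, and all on repeats. They began with an RLTR50B peak (chr7:58991370-58991870, score 6.1), an RLTR10B2 peak (chr7:59032082-59032719, score 8.99) and an L1Md_A peak (chr7:59066613-59067113, score 6.42). The strongest member peak of all came next, at chr7:59085552-59087003, 1451 bp wide with a score of 20.2, on an IAP-d-int element. Only 1.6% of the list (554 peaks) scored as high. A second peak on IAP-d-int lay 1.94 kb on, at chr7:59087968-59088468, with a score of 6.42, so that 4 of the 5 Ube3a peaks were on ERVK elements. Both IAP-d-int peaks consisted wholly of sequence that occurs once in the genome: none of their 150-base stretches had another perfect copy. In the reference, only 6.89% of the bases of the first and 10.2% of the second were soft-masked, that is, marked as repetitive. For these peaks the mask and the authors' repeat label thus differed. The list held 42 peaks on IAP-d-int, with a median score of 8.5.

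Atp10a, at chr7:58656142-58830244 on the plus strand, encodes a phospholipid flippase of the plasma membrane. Apart from Snrpn it was the only member with peaks inside the gene, and both of these were outside repeats. One was in intron 1 of 20 at chr7:58711571-58712071 (score 6.42, 53.6 kb from the TSS) and the other in exon 8 of 21 at chr7:58790821-58791321 (score 5.78), the single member peak in an exon. Upstream, an L1Md_T peak lay 63.9 kb from the TSS (chr7:58594058-58594558, score 6.42), a peak outside repeats 278 kb from it (chr7:58379746-58380246, score 5.78) and a MERVL-int peak 494 kb from it (chr7:58163544-58164044, score 9.63). With 2 of 5 on repeats, Atp10a had the lowest such count among the members with several peaks.

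Ndn, Magel2, Mkrn3 and Peg12 are intronless genes that lie within 116 kb of each other at the far end of the cluster. That stretch held 1 peak. Ndn encodes necdin, a MAGE-family protein that restrains growth in neurons, and its single peak was 38.4 kb upstream, on an Lx3A element (chr7:62309672-62310172, score 5.78). Magel2, another MAGE gene, had no assigned peak, and the closest peak to its TSS was 31.3 kb away. That peak was the one assigned to Mkrn3, which encodes a makorin RING-finger protein: it lay 11.9 kb downstream of the Mkrn3 TSS, outside repeats, at chr7:62407993-62408493, with a score of 6.42. Neither of these single peaks reached the median score of the list, 7.06.

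Peg12, also called Frat3, belongs to a family of GSK3-binding proteins. Its 9 peaks all lay upstream, 14.2 to 367 kb from its TSS, in the DNA towards Chrna7, and 8 of them were on repeats. Closest were an Lx5 peak (chr7:62478504-62479004, score 6.74) and a peak outside repeats (chr7:62481990-62482704, score 7.38). The highest score was 11.6, on an IAPEY3-int element (chr7:62643499-62644135), and 9.63 followed, on Lx3_Mus (chr7:62831275-62832072). The remaining 5 were on LTRIS_Mm (chr7:62511611-62512111, score 7.38), Lx3C (chr7:62585115-62585751, score 8.34), MERVL-int (chr7:62622949-62623449, score 7.7), L1_Mus1 (chr7:62697834-62698334, score 6.42) and B4 (chr7:62783355-62783855, score 6.1). Of the members with several peaks, Peg12 had the highest median score, 7.38, and 6 of its 9 peaks were at or above the median of the list (66.7%, 95% Wilson interval 35.4 to 87.9%), a range that includes the 51.7% of all peaks.

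**Figure D2:**
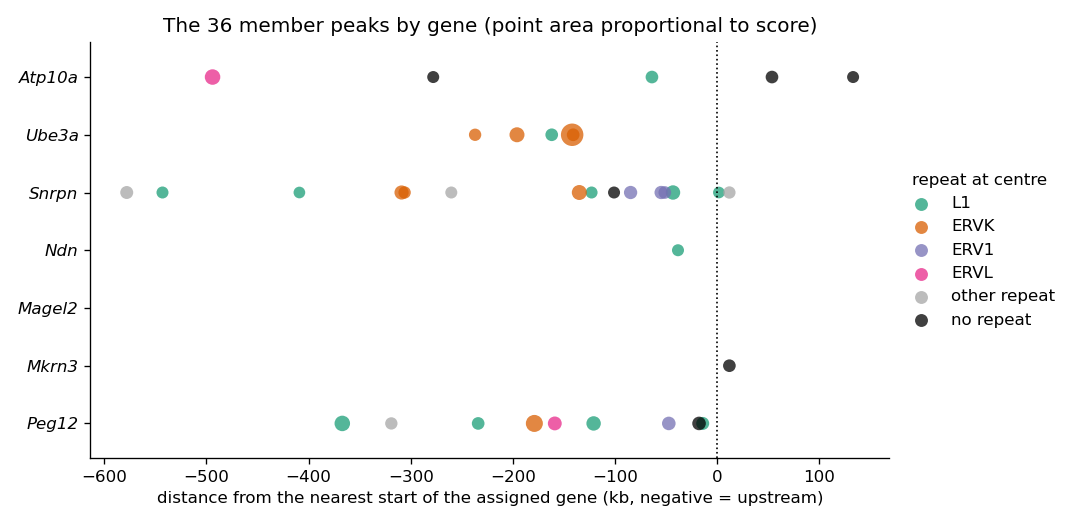
Each of the 36 member peaks by its assigned gene and its distance in kb from the nearest start of that gene, upstream to the left. Point area is proportional to the authors' score and colour gives the repeat family at the centre. All Ube3a and Peg12 peaks sit upstream, Magel2 has none, and the single point next to a start is the Snrpn peak at 1.64 kb.

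By the authors' annotation, 30 of the 36 member peaks were centred on a repeat, or 83.3% (95% Wilson interval 68.1 to 92.1%), beside 54.0% of all peaks. This holds for the peaks that carry a member's name: over all 62 peaks from Atp10a to Peg12 the share was 50.0% (interval 37.9 to 62.1%), which includes that of the list. Judged by a soft-masked base of the reference at the centre, the share of the members was 50.0% (interval 34.5 to 65.5%), which includes the 39.8% of all peaks. LINE-1 elements, retrotransposons without long terminal repeats, carried 12 of them (33.3%, interval 20.2 to 49.7%, beside 16.3%). ERVK elements carried 8 (22.2%, interval 11.7 to 38.1%, beside 13.0%) and ERV1 elements 4 (11.1%, interval 4.41 to 25.3%, beside 2.99%). The L1 and ERV1 intervals lay above the share in the list, whereas that of ERVK included it. This too holds for the peaks that carry a member's name. Over all 62 peaks from Atp10a to Peg12, L1 made up 19.4% (11.4 to 30.9%) and ERV1 6.45% (2.54 to 15.4%). Both of these ranges included the share in the list. The scores differed between families. The 8 ERVK peaks had a median of 8.5 and the 12 L1 peaks a median of 6.42. No adjustment was made for how much of each repeat this stretch of the chromosome holds, and its part in these shares was not tested.

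**Figure D3:**
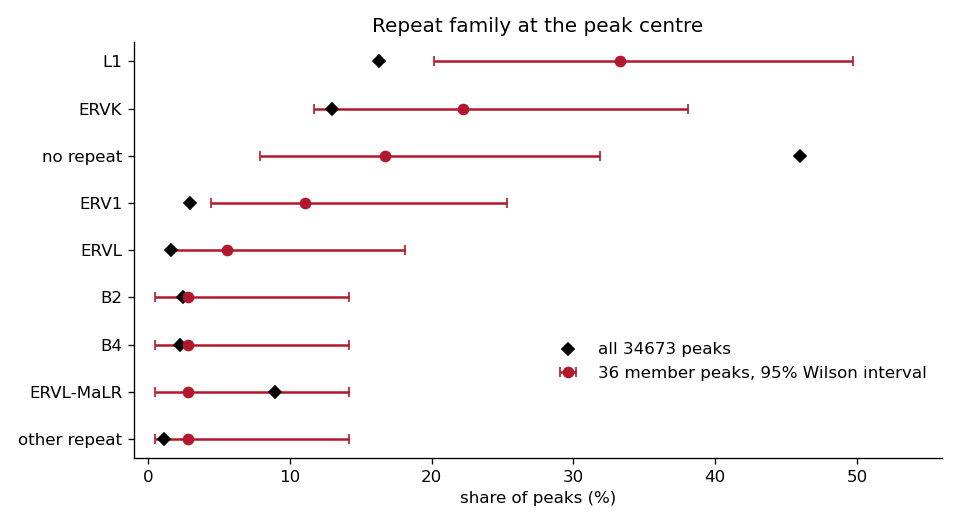
Share of peaks (%) centred on each repeat family, for the 36 member peaks (red, error bars are 95% Wilson intervals, for counting error) and for all 34673 peaks (black). L1 stands at 33.3% against 16.3%, and peaks outside repeats at 16.7% against 46.0%.

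By score, the members could not be set apart from the list at this number of peaks. Their median was 6.42, with an order-statistic 95% interval of 6.1 to 7.38 that includes the 7.06 of all peaks. Of the 36, 14 were at or above 7.06 (38.9%, Wilson interval 24.8 to 55.1%), beside 51.7% of all peaks. Scores below 10 took only 18 different values, mostly 0.32 apart, so these medians differ by a small number of steps. Only 2 members, the IAP-d-int peak upstream of Ube3a and the IAPEY3-int peak upstream of Peg12, scored 10 or more, a range that held 13.8% of all peaks. Width did not set the members apart: 22.2% of them and 22.9% of all peaks were wider than 500 bp, the most common width. None of the 36 held the ZFP57 hexamer in the central 500 bp, against 7.18% of all peaks, and the upper limit of the Wilson interval for 0 of 36 was 9.64%. TTGGCA was found in 10 (27.8%, beside 26.6%).

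The interval from the start of Atp10a to the end of Peg12, chr7:58656142-62464510, held 62 peaks in 3.81 Mb, of which 38 were assigned to genes outside the member list. Its density was 16.3 per Mb, between that of all autosomes (13.3) and of chromosome 7 (18.0). The density was uneven. From the end of Ube3a to the end of Snrpn, where Snhg14 carries the snoRNA genes, there were 28 peaks in 672 kb, or 41.7 per Mb, and not 1 of them was assigned to a member. Without that stretch the interval held 34 peaks, or 10.8 per Mb. The longest stretch without a peak, 360.2 kb, ended at the Ndn peak.

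**Figure D4:**
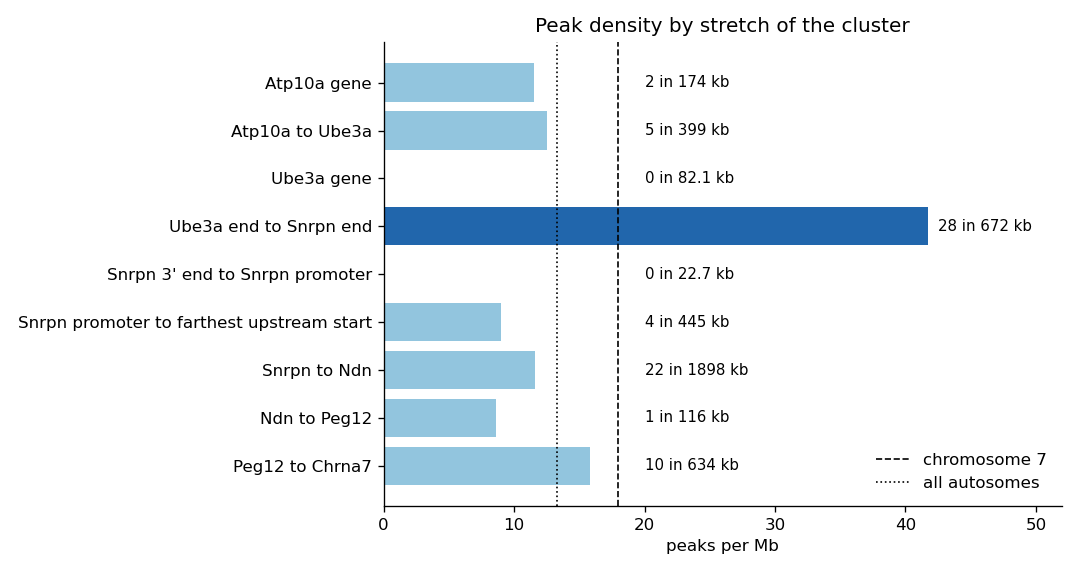
Peaks per Mb in 9 consecutive stretches from Atp10a to Chrna7, with the number of peaks and the length in kb beside each bar. Vertical lines mark chromosome 7 (18.0) and all autosomes (13.3). The stretch between Ube3a and Snrpn reaches 41.7, and Ube3a itself and the 3′ part of Snrpn have 0 peaks.

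By the authors' annotation, the 28 peaks between Ube3a and Snrpn differed from the member peaks in class and in repeats. All were intronic in Snhg14, and 25 of the 28 lay outside annotated repeats and only 3 on one (2 on IAPEz-int and 1 on L1Md_F3). Judged by a soft-masked base of the reference at the centre, the contrast in repeats ran the other way. By that measure 24 of the 28 were masked (85.7%, Wilson interval 68.5 to 94.3%), beside 50.0% of the members and 39.8% of all peaks. The scores of the 28 ran from 5.46 to 46.5 with a median of 7.7. The authors assigned 13 to Gm22496, a snoRNA gene, 10 to Snord116, 4 to Snord64 and 1 to Ipw, a noncoding RNA of the same transcript. The array of 133 short snoRNA genes (at most 85 bp, spaced 1.87 kb apart) next to Ube3a had 20 peaks, 13 of them over a snoRNA gene. Their names were Gm22496 and Snord116, so part of the peaks named Snord116 lay in this array, up to 162 kb from the Snord116 start. The second array, 70 genes of more than 85 bp spaced 2.53 kb apart that begin within Ipw and include the Snord116 genes, had 7. These snoRNAs belong to the C/D box class, and deletion of the human SNORD116 genes is linked to Prader-Willi features.

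The highest score of the interval, 46.5, was at chr7:59896211-59897952, outside annotated repeats and over one of the Snord116 genes, in the window whose sequence is shown above. Next to it a peak of score 18.0 was centred 2.56 kb away, and a peak of score 20.2 lay farther towards Ube3a, at chr7:59766319-59766819. Of the 12 peaks in the interval with a score of 10 or more, 10 were in this stretch. Its sequence is repetitive in another sense: 27 of the 28 peaks shared at least one 150-base stretch with another place in the genome, with a median of 63.1% of each peak's stretches, and 9 consisted wholly of such sequence. Among the members this held for 10 of 36, and for 4 of 36 wholly, beside 17.2% and 5.14% of all peaks. A read pair from such a peak can match several snoRNA units, and the authors kept its best location, so the unit to which a peak was placed is uncertain. The part of this in the density and the scores was not tested. TTGGCA occurred in 19 of the 28 windows, but copies of the array units share their sequence and are not independent.

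**Figure D5:**
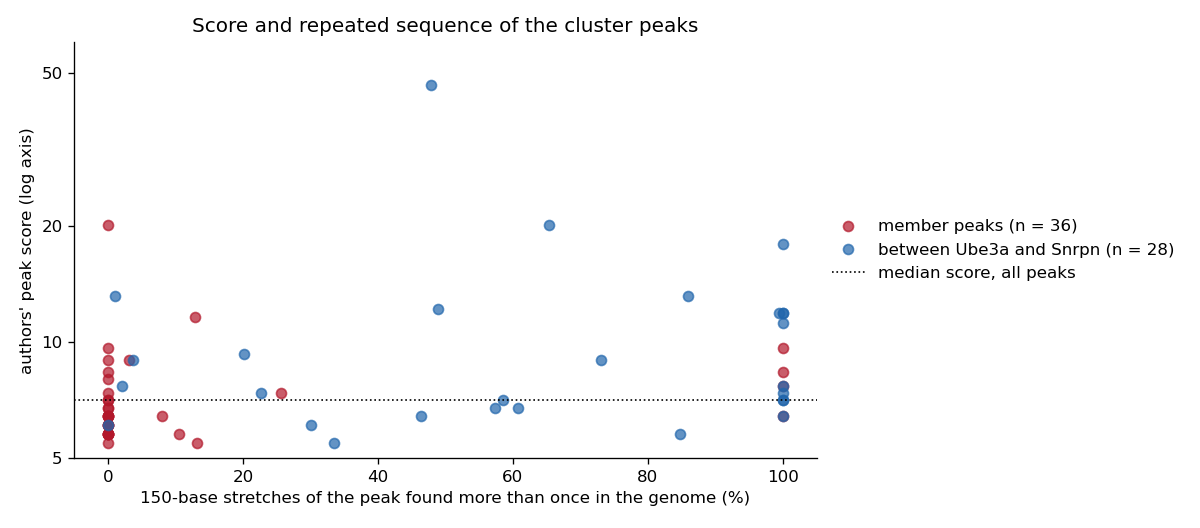
Authors' score (log axis) against the share of a peak's 150-base stretches that occur more than once in the genome, for the 36 member peaks (red) and the 28 peaks between Ube3a and Snrpn (blue). Most member peaks sit at 0%, whereas 27 of the 28 blue points sit above it. The dotted line is the median score of the list, 7.06.

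Between Snrpn and Ndn there were 22 peaks in 1898 kb, or 11.6 per Mb, and 19 of them were on repeats. Besides 11 of Snrpn and 1 of Ndn, the authors assigned 6 of these to B230209E15Rik and 1 each to Mir344d-1, Mir344b, Mir344c and Mir344-2, genes of a microRNA family. All 6 at B230209E15Rik were on repeats, and the highest, 12.8, was on an IAPEY3-int element. Of the neighbouring genes looked up, Gabrg3 had 8 assigned peaks, Oca2 had 2, and Gabra5, Herc2 and Nipa1 had 1 each. Snurf, Snhg14, Snord115, Mkrn3os, Nipa2, Cyfip1 and Tubgcp5 had 0. These are counts by assigned name and not by place: the 20 peaks of the snoRNA array next to Ube3a carry the names Gm22496 and Snord116. Snhg14 shares its start with Snrpn, and peaks nearest to that start carry the name Snrpn in the list.

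Other imprinted clusters were set beside this one as a description. Dlk1 to Dio3 had 38.6 peaks per Mb (32 peaks), the Igf2r cluster 25.0 (11), the Peg3 cluster 17.1 (5) and Mest 13.3 (3). H19 to Phlda2 had 11.9 (11), Grb10 6.15 (4) and Peg10 to Sgce 6.01 (5), and the 62.4 kb of Gnas had 0. Most of these densities rest on few peaks, so their order is uncertain. Of 13 other imprinted genes with a germline-methylated promoter, a list drawn up after the peaks had been seen, 8 had a peak within 5 kb of a curated start, beside 12.5% of protein-coding genes. Since that list was not chosen blind to the peaks, its share is a description only, and Gnas was not on it. Mest had a peak 0.08 kb away, Peg10 0.847 kb, Mcts2 1.01 kb and Peg3 1.28 kb. At Snrpn the corresponding distance, that to the closest curated start, was 1.64 kb, at an upstream start. Its main promoter, where the methylated control region lies, was 30.9 kb from a peak. That value has no counterpart here, since the other genes' distances were not measured from the methylated start in particular. The other 5 of the 13 had no peak within 10 kb: Grb10 (19.4 kb), Kcnq1ot1 (39.5 kb), Plagl1 (49.4 kb), Airn (49.5 kb) and Nap1l5 (202 kb). A list of WT-specific peaks does not show whether these promoters carried H3K9me3 in both genotypes or in neither.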

How the data were processed

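H3K9me3 ChIP-seq of P10 BG was used as the merged list of WT-specific peaks. According to the methods and the submitters' processing notes, the authors aligned 150 bp read pairs to mm10 with Bowtie2 2.2.8, kept 1 best location for a read with several matches and no more than 1 tag at a position, and used HOMER 4.10.1 to call peaks at a false discovery rate of 0.001 and at least 4-fold over the local 10 kb, and kept peaks present in WT and absent in mutant BG. The sources used here do not say how libraries were merged. The heading of the deposited list names CT and InputMT, which leaves unclear whether input, mutant H3K9me3 or both served as background, and so what a score is relative to. The deposited score of each peak has no stated scale, and depth is unknown. Positions, widths, distances, repeats and gene names are those the authors deposited.

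Member genes and lists were chosen with earlier results of these data known. The genes named were all 7 members, any gene with an assigned peak in the interval and the neighbouring genes whose counts are given (the result of 1 is not reported here). Positions were compared with RefSeq GRCm38.p6, the same build, using Python 3.11.15, pandas 2.3.3, NumPy 2.4.6, SciPy 1.17.1 and numba 0.67.0. Genes were matched by Entrez identifier, then symbol. Recomputing the nearest start over curated transcripts gave the same gene for 87.7% of all peaks and 30 of 36 members. Every 150-base stretch of each peak was searched for perfect copies on chromosomes 1 to 19, X and Y, on both strands, and the 73 peaks elsewhere were left out of sequence counts. Motif and copy searches were tested on simulated data. Shares have 95% Wilson intervals. Alternatives changed the gene assignment, score threshold, repeats, interval and start used. No test was run, since no value exists per library.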

Additional observations from a re-analysis of the deposited data

How the results depend on the processing

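Each count depends on what is called a peak of the cluster. The 36 peaks became 6 when a peak had to overlap a member gene or the 5 kb beside it, 1 within 10 kb of a TSS, 14 at or above the median score, 6 outside repeats and 62 when all peaks of the interval were taken, while recomputing the nearest TSS left 30. The 6 members with a peak became 2 by overlap with the gene and 1 within 10 kb, and 4 at or above the median score. The share on repeats, 83.3%, was 92.9% at or above the median score and 50.0% over the interval. It was also 50.0% when judged by a soft-masked base of the reference at the centre. That measure gave 64.5% over the interval and 39.8% for all peaks, and the sources used here do not say how that mask was made. The median score, 6.42, stayed between 6.1 and 6.74. The density, 16.3 per Mb, fell to 7.88 at or above the median score and 8.14 outside repeats, where fewer peaks are counted by construction, and was 15.4 with 500 kb added on either side. The distance from the Snrpn promoter to the closest peak, 30.9 kb, was 30.7 kb by that peak's edge. Other peaks were the closest in the remaining settings, at 51.3 kb (RLTR41) from the farthest upstream start and at 108 kb (assigned to Snord64) from the promoter among peaks at or above the median score. No replicate could be left out and no paired analysis was possible because the list merges the libraries. Depth per library is unknown, so a peak missing from the list is not shown to be absent.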
